A study of Homo sapiens with 21 samples.

Results

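The enzymes that hydroxylate and cross-link collagen lysines, together with a pair of collagen prolyl hydroxylase subunits, were followed in RNA sequencing of cancer cell lines and their treatment-resistant derivatives. The 10 genes were taken by symbol and are LOX, LOXL1, LOXL2, LOXL3 and LOXL4 (lysyl oxidases), PLOD1, PLOD2 and PLOD3 (lysyl hydroxylases), and P4HA2 and P4HA3 (catalytic subunits of prolyl 4-hydroxylase). All 10 had a row among the 53515 Ensembl genes that were counted. The series held 21 libraries of 17 human cell lines, 7 parental and 10 resistant. All are established lines grown as cultures at atmospheric oxygen, the HepG2 lines in William's E medium and the others in RPMI.

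The liver line HepG2 was the parent of HepG2S1 and HepG2S3, selected with sorafenib, a multikinase inhibitor. From the pancreatic line PancVB came PancB1Q and PancB1V, selected with the antimetabolite 5-fluorouracil. The lung line HCC4006 was used as 2 parental stocks. HCC4006P1 gave HCC4006ER under erlotinib and HCC4006P2 gave HCC4006GR under gefitinib, both of which inhibit EGFR. A further lung line, HCC827P, gave HCC827GR under gefitinib. The ovarian line UWB1.289 gave U10 and U100 under olaparib, a PARP inhibitor, and the ovarian line IGROV-1 gave IGROV-1/CDDP under cisplatin. Resistant lines were derived by exposure to rising doses over months, so a resistant line differs from its parent by long culture and selection as well as by drug, and these cannot be told apart. Sequencing was repeated for 4 lines (HCC4006ER, HCC4006P1, HepG2S3 and HepG2, 2 libraries each), and the remaining 13 gave 1 library. The labels do not say that the paired libraries came from separate cultures, so their spread may be technical.

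Collagen chains are hydroxylated on proline and lysine in the endoplasmic reticulum. Prolyl 4-hydroxylase, a tetramer of P4HA subunits with P4HB, stabilises the triple helix, and the PLOD enzymes hydroxylate lysines in the helix (PLOD1, PLOD3) or in the telopeptides (PLOD2). After secretion the copper-dependent lysyl oxidases oxidise lysine side chains of collagen and elastin, which then form covalent cross-links. LOX, PLOD2, P4HA1 and P4HA2 are textbook targets of the hypoxia-inducible factors, and cross-linking enzymes made by tumor cells are known for stiffening the surrounding matrix.

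Promoter sequences were searched for 8 of the 10 genes, all but LOXL2 and P4HA3. Those of LOX, PLOD2, LOXL4 and P4HA2, which are described at most length below, are shown for reading beside the expression. Each is the 250 bases upstream of the transcription start (RefSeq, GRCh38.p14), with ACGTG or its complement CACGT, the core of the hypoxia response element, in capitals. LOX has 3 annotated starts, of which the first listed is shown. The stretches are chr5:122078260-122078509, chr3:146161185-146161434, chr10:98268195-98268444 and chr5:132227092-132227341, all on the minus strand.
LOX: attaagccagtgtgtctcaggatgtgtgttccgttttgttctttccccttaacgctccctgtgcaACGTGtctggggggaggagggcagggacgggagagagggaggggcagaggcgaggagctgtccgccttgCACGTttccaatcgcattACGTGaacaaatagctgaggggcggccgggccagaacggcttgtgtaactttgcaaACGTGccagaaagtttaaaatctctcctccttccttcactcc
PLOD2: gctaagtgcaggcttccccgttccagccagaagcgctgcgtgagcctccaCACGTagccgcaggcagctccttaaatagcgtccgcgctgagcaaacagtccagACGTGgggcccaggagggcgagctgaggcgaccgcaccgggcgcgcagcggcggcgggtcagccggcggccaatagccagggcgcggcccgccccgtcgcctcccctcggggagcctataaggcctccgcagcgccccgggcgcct
LOXL4: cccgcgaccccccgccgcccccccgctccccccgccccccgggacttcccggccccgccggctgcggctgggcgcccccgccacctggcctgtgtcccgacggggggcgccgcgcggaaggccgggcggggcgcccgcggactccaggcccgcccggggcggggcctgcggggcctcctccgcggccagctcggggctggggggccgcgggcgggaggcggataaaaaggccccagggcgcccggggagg
P4HA2: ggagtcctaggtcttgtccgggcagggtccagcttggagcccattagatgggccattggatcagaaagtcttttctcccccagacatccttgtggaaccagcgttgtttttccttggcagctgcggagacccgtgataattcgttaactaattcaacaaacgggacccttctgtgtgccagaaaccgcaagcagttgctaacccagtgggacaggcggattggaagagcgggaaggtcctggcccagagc
The LOX stretch held the core 4 times and the PLOD2 stretch 2 times, none overlapping another, while LOXL4, P4HA2 and the other 4 stretches searched held none. Among 35116 promoters of the same length, 18.5% held at least 1. The variant GCGTG, present in 32.2% of promoters, was found 2 times upstream of PLOD1 and 1 time upstream of PLOD2. The LOXL4 stretch had 37 CpG dinucleotides and PLOD2 had 30, against a median of 11 and against 13 for LOX and 9 for P4HA2. A match is only a match of letters and does not show binding.

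Libraries held between 9851195 and 36639473 counts on genes. Counts scaled to library size (CPM) were taken over genes with a known position that every library could count, and 3 counts, the smallest number taken as detected, were at most 0.388 CPM. The lineage of the lines was checked against marker lists. All 6 hepatocyte markers were present in HepG2, and the 4 ovarian carcinoma markers were present in part. PAX8 was between 469 and 891 CPM in the 5 ovarian lines, but WT1 was at 0.634 CPM or less in all of them, and MUC16 and MSLN were under 1 CPM in IGROV-1 and IGROV-1/CDDP. NKX2-1, the lung lineage factor, was at 140 CPM in HCC4006P2 and 76.2 in HCC827P but at 0.0823 in HCC4006P1 and 0 in HCC4006ER. Of the 5 lung markers, 4 were at or above 1 CPM in HCC4006P2 and HCC4006GR and 3 in HCC827P and HCC827GR. In HCC4006P1 it was 1 and in HCC4006ER 0. FOXA2 went the same way as NKX2-1 within HCC4006, with 12.6 CPM in HCC4006P2 against 8.73 in HCC4006P1. It was at 7.75 CPM in HCC4006GR against 0.126 in HCC4006ER. Against HCC827P, with 3.69 CPM, HCC4006P1 was higher in FOXA2, the other way from NKX2-1. PDX1, the pancreatic lineage factor, was between 0.134 and 0.256 CPM in the pancreatic lines. The epithelial keratin KRT19 was at 838 CPM in PancVB, 104 in PancB1Q and 36.4 in PancB1V. KRT19 was not particular to these lines, with 1943 CPM in HCC4006P1, 1233 in HCC4006P2 and 965 in HCC827P.

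The genes lie at separate loci (GRCh37). LOX is at chr5:121398890-121414108, P4HA2 at chr5:131525840-131631008, LOXL1 at chr15:74218330-74244478, LOXL3 at chr2:74759385-74782817, LOXL4 at chr10:100007447-100027951 and P4HA3 at chr11:73946846-74022685. PLOD1 is at chr1:11994262-12035595, PLOD2 at chr3:145752926-145881512, PLOD3 at chr7:100849258-100861701 and LOXL2 at chr8:23154410-23282841. Replicate 1 of HCC4006P1 lacked counts from chr7 position 30620149 onward and on the chromosomes that follow in alphabetical order. LOXL2 and PLOD3 lie there, so their HCC4006P1 value is that of replicate 2 alone, and they stayed out of the test of HCC4006ER with 2 libraries a side. Several members overlap genes on the opposite strand (SRFBP1 for LOX, DOK1 and HTRA2 for LOXL3, PDLIM4 and SLC22A4 for P4HA2, PPME1 for P4HA3, ZNHIT1 for PLOD3). Since no source states the strand setting of the counting, their counts carry that uncertainty. ENTPD4 overlaps LOXL2 on the same strand, so no strand setting could separate their reads.

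Changes between a resistant line and its parent were first counted as differences of log2(CPM + 1) past 1, that is past 2-fold. Of 100 changes (10 genes in 10 pairs), 26 were past 2-fold upward and 9 downward. The share of all expressed genes past the same limit is given beside each count. HepG2S1 had 3 members higher and 1 lower, against 26.8% and 18.0% of genes (44.7% in either direction). HepG2S3 had 4 higher and 1 lower (27.5% and 17.9%, 45.4% in either). For PancB1Q it was 1 and 1 (6.66% and 9.39%, 16.1% in either), and for PancB1V 2 and 1 (9.60% and 7.14%, 16.7% in either). HCC4006ER had 6 higher and 0 lower (13.6% and 10.4%, 24.0% in either) and HCC4006GR 5 higher and 1 lower (7.76% and 7.83%, 15.6% in either). HCC827GR had 0 and 1 (11.2% and 7.73%, 18.9% in either). In U10 the count was 3 higher and 0 lower (6.36% and 5.63%, 12.0% in either). U100 had 1 and 0 (6.87% and 1.88%, 8.76% in either). IGROV-1/CDDP had 1 higher and 3 lower (5.67% and 7.62%, 13.3% in either). In the HepG2 and HCC827 pairs the members' share was near or under that of all genes, as it was in PancB1Q and U100. It was above it in PancB1V, both HCC4006 pairs, U10 and IGROV-1/CDDP. More members were past 2-fold higher than lower in HepG2S1, HepG2S3, PancB1V, HCC4006ER, HCC4006GR, U10 and U100, and more were lower in HCC827GR and IGROV-1/CDDP.

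**Figure D1:**
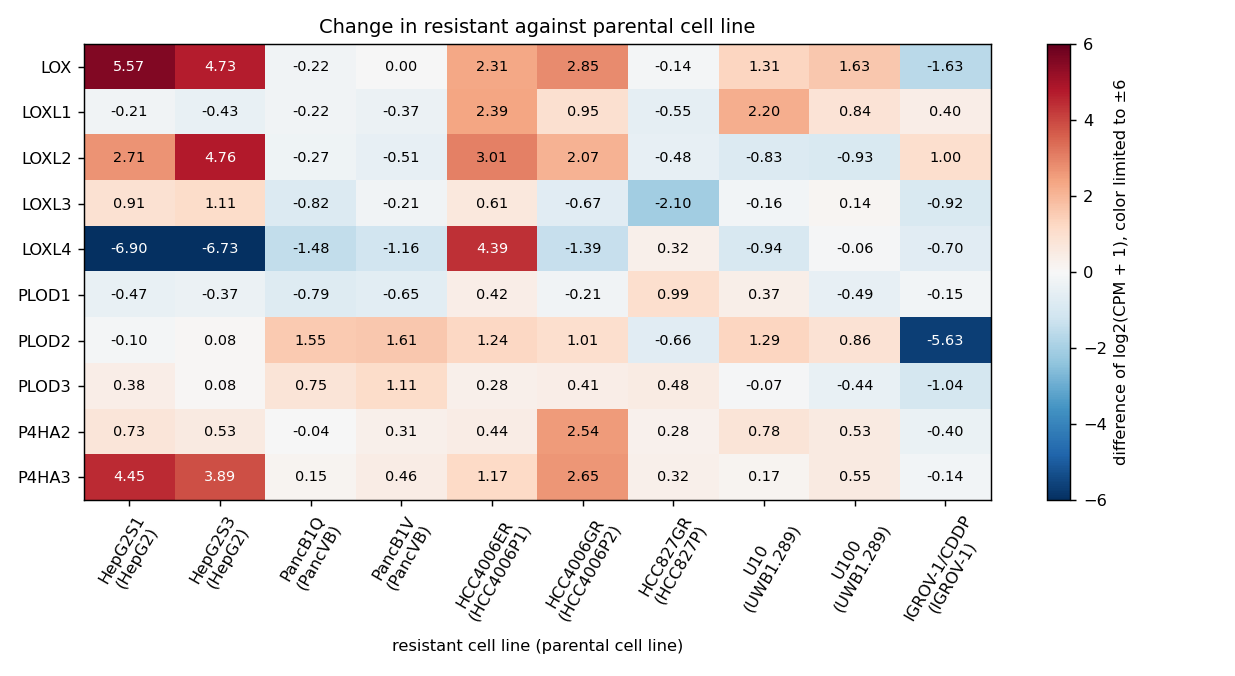
Difference of log2(CPM + 1) between each resistant line and its parental line (columns) for the 10 genes (rows), red higher and blue lower in the resistant line, replicate libraries averaged and color limited to ±6. LOX was past 2-fold higher in 6 pairs and lower in 1, while LOXL4 was higher in 1 and lower in 5.

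No single direction held for a member in all pairs. LOX was past 2-fold higher in 6 of 10 pairs, LOXL2 and PLOD2 in 5 each, P4HA3 in 4, LOXL1 in 2, and LOXL3, LOXL4, PLOD3 and P4HA2 in 1 each. LOXL4 was past 2-fold lower in 5 pairs and LOX, LOXL3, PLOD2 and PLOD3 in 1 each. PLOD1 passed 2-fold in none of the 10 pairs. The CPM scale carried a shift of its own. The median of all expressed genes was 0.30 above 0 on the log2 scale in HepG2S1, 0.29 in HepG2S3 and 0.11 in HCC4006ER and 0.11 below 0 in PancB1Q. After TMM scaling, 5 of the 100 differences turned sign. These were PLOD3 in HepG2S1 and HepG2S3, PLOD2 in HepG2S3, P4HA2 in PancB1Q and LOX in PancB1V, at most 0.38 in size before scaling.

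LOX, the founding lysyl oxidase, lay between 3.91 CPM in IGROV-1/CDDP and 417 CPM in HepG2S1. It had 6.42 and 9.23 CPM in the HepG2 libraries, 417 in HepG2S1 and 245 and 222 in HepG2S3. The HCC4006P1 libraries had 53.4 and 38.6 CPM and HCC4006ER 258 and 204, and the level was 42.9 CPM in HCC4006P2 and 316 in HCC4006GR. In these 4 pairs every resistant library was above every parental library. UWB1.289 had 31.2 CPM against 78.5 in U10 and 98.8 in U100, which was again higher in both derivatives. PancVB, PancB1Q and PancB1V had 91.8, 78.8 and 91.7 CPM and thus lay close together, as did HCC827P and HCC827GR with 6.68 and 5.99. IGROV-1 had 14.2 CPM and IGROV-1/CDDP 3.91, the one pair in which LOX was past 2-fold lower.

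The log2 difference in LOX was 5.57 in HepG2S1 (95% counting interval 5.44 to 5.69), 2.85 in HCC4006GR (2.71 to 2.98), 1.31 in U10, 1.63 in U100 (1.45 to 1.82) and -1.63 in IGROV-1/CDDP (-1.92 to -1.32). Intervals here cover counting error only. In HepG2S3 it was 4.73 ± 0.28 and in HCC4006ER 2.31 ± 0.33 (SD over the 4 pairings of 2 and 2 libraries). In the order of LOX levels the highest 4 lines were HepG2S1, HCC4006GR, HepG2S3 and HCC4006ER. Each gap between neighbours among them was under the largest difference between replicate libraries (0.46 on the log2 scale), and the gap of 1.22 to the next line, U100, was over it. SRFBP1, which overlaps LOX on the opposite strand, had 26.5 CPM in HepG2 against 28.4 in HepG2S1 and 21.1 in HepG2S3, and 19.3 in HCC4006P1 against 16.3 in HCC4006ER.

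LOXL2, a secreted lysyl oxidase with scavenger receptor domains, had 5.35 and 5.29 CPM in HepG2, 40.3 in HepG2S1 and 189 and 153 in HepG2S3. HCC4006P1 replicate 2 had 95.4 CPM against 741 and 812 in HCC4006ER, and HCC4006P2 had 103 against 436 in HCC4006GR. All of these resistant libraries lay above their parents, and the HCC4006ER level was the highest of the 17 lines. In the pancreatic lines it was 97.9 CPM in PancVB, 80.9 in PancB1Q and 68.2 in PancB1V, and in the HCC827 pair 151 and 108. UWB1.289 had 5.08 CPM against 2.41 in U10 and 2.19 in U100, from 45, 19 and 22 counts. The derivatives were below their parents in these 3 families. In the last the parental CPM was 2.11 times that of U10 and 2.32 times that of U100, while on log2(CPM + 1), which shrinks low levels, the differences were -0.83 and -0.93. IGROV-1 had 29.1 CPM and IGROV-1/CDDP 59.4, so that LOX and LOXL2 lay on opposite sides of their parent in this pair. The log2 difference in LOXL2 was 2.71 in HepG2S1 (2.50 to 2.92), 4.76 ± 0.18 in HepG2S3, 3.01 ± 0.09 in HCC4006ER (2 pairings), 2.07 in HCC4006GR (1.98 to 2.17) and 1.00 in IGROV-1/CDDP (0.86 to 1.14). The interval of the last reaches both sides of the 2-fold limit. ENTPD4, which overlaps LOXL2 on the same strand, had 58.7 CPM in HepG2, 71.4 in HepG2S1 and 85.1 in HepG2S3. It had 77.9 CPM in HCC4006P1 against 107 in HCC4006ER, and 83.9 in HCC4006P2 against 103 in HCC4006GR.

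**Figure D2:**
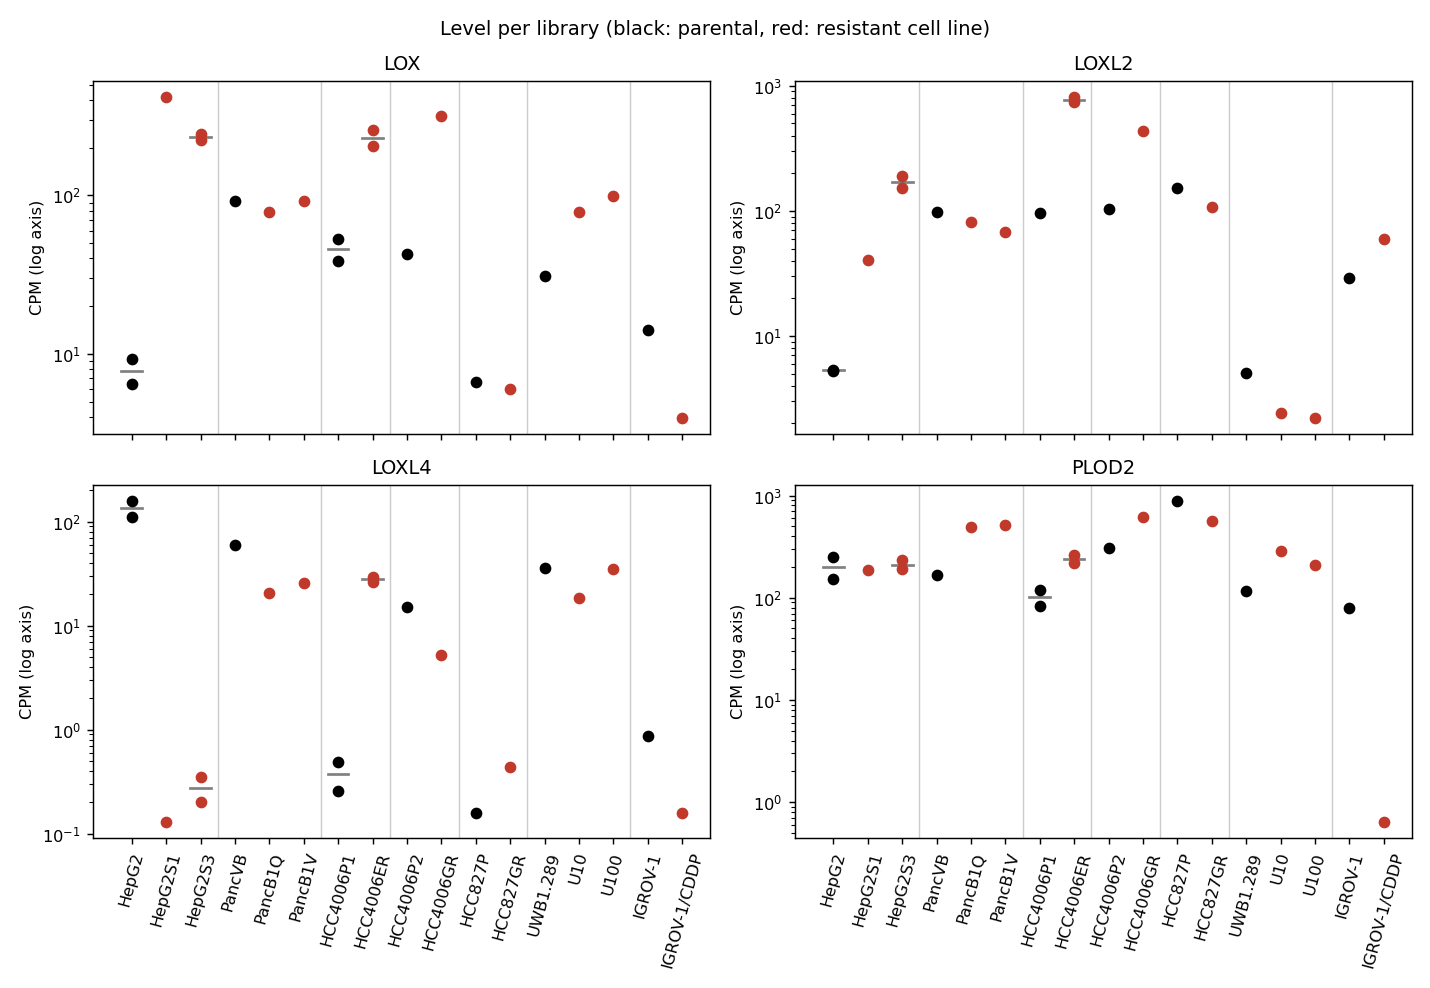
CPM on a log axis for LOX, LOXL2, LOXL4 and PLOD2 in each library, by cell line, with parental lines in black, resistant lines in red and a gray bar at the mean of 2 libraries. LOX and LOXL2 lie higher in the derivatives of HepG2 and HCC4006, LOXL4 is under 1 CPM in the HepG2 derivatives, and PLOD2 is at 0.635 CPM in IGROV-1/CDDP.

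LOXL4, the remaining member of the branch with scavenger receptor domains beside LOXL2 and LOXL3, had the opposite pattern in the liver pair. It had 110 and 158 CPM in HepG2 (3292 and 4453 counts), 0.129 in HepG2S1 (1 count) and 0.351 and 0.200 in HepG2S3 (9 and 5 counts). HepG2 held the highest level of all 17 lines and HepG2S1 the lowest. HCC4006P1 had 0.494 and 0.258 CPM, from 9 and 4 counts, against 29.4 and 26.2 in HCC4006ER. In this pair LOXL4 was thus higher in both resistant libraries. In HCC4006P2, the other stock of the same line, it started at 15.3 CPM and was at 5.22 in HCC4006GR. PancVB had 59.2 CPM against 20.5 in PancB1Q and 25.9 in PancB1V, and UWB1.289 had 36.1 against 18.4 in U10 and 34.7 in U100. HCC827P, HCC827GR, IGROV-1 and IGROV-1/CDDP were all under 1 CPM. The log2 difference was -6.90 in HepG2S1 (-7.05 to -6.28), -6.73 ± 0.31 in HepG2S3, 4.39 ± 0.17 in HCC4006ER and -1.39 in HCC4006GR (-1.74 to -1.02). It was -1.48 in PancB1Q (-1.64 to -1.33) and -1.16 in PancB1V (-1.309 to -1.012).

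LOXL1, the family member known for elastic fibre maintenance, was a gene of the HCC4006 and UWB1.289 families. The HCC4006P1 libraries had 30.01 and 32.5 CPM and HCC4006ER 174 and 162, and HCC4006P2 had 27.1 against 53.3 in HCC4006GR. UWB1.289 had 16.5 CPM, U10 79.4 and U100 30.3. In these 4 pairs the derivative was higher, past 2-fold in HCC4006ER (2.39 ± 0.09) and U10 (2.20, 1.95 to 2.45). The pancreatic lines had between 5.59 and 7.52 CPM. In HepG2 it had 8 and 18 counts (0.268 and 0.639 CPM), in HepG2S1 2 counts and in HepG2S3 4 and 0 counts, the last of which allows up to 0.120 CPM. The log2 difference was -0.21 in HepG2S1 (-0.51 to 0.44) and -0.43 in HepG2S3 (-0.64 to -0.21). The latter had an SD of 0.25 over the library pairings, which ran from -0.71 to -0.13. The pairings share libraries, so this SD is not a standard error. HCC827P had 19 LOXL1 counts against 8 in HCC827GR, and IGROV-1 4 against 11 in IGROV-1/CDDP, with counting intervals that include 0.

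LOXL3, related to LOXL2, was at or above 10 CPM only in the 3 lines of the UWB1.289 family, with 13.0 CPM in UWB1.289, 11.5 in U10 and 14.4 in U100. HCC827P had 8.96 CPM (114 counts) against 1.32 in HCC827GR (15 counts), a log2 difference of -2.10 (-2.54 to -1.59) and the only change past 2-fold in that pair. The 2 HepG2 libraries differed from each other, with 2.71 and 0.888 CPM, against 4.27 in HepG2S1 and 5.34 and 4.76 in HepG2S3, so that the difference of 1.11 in HepG2S3 came with an SD of 0.57 and was 0.91, no longer past 2-fold, after TMM scaling. None of the 16 gaps between neighbouring lines in the order of LOXL3 levels exceeded the largest difference between replicates.

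Per transcript length, the make-up of the lysyl oxidase family differed between lines. CPM per kilobase of the canonical transcript (RPKM) was summed over the 5 oxidases, and each member was expressed as a share of the sum. LOXL4 made up 91.1% of the sum in HepG2 but 0.0381% in HepG2S1 and 0.0819% in HepG2S3. There LOX took 87.1% in HepG2S1, and LOX and LOXL2 took 49.3% and 49.1% in HepG2S3. The summed level was 40.9 RPKM in HepG2, 94.4 in HepG2S1 and 93.4 in HepG2S3, so the total was higher while its composition was exchanged. In the HCC4006 lines LOXL2 led in parents and derivatives alike, with 52.5% in HCC4006P1, 62.3% in HCC4006ER, 52.0% in HCC4006P2 and 57.4% in HCC4006GR. The sum there went from 48.9 to 335 RPKM in HCC4006P1 and HCC4006ER and from 53.1 to 204 in HCC4006P2 and HCC4006GR. LOXL2 made up 90.2% in HCC827P, 93.7% in HCC827GR and 92.5% in IGROV-1/CDDP. In the UWB1.289 family no member held more than 58.2%, the share of LOXL1 in U10. Shares in lines with 1 library have no replicate check.

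**Figure D3:**
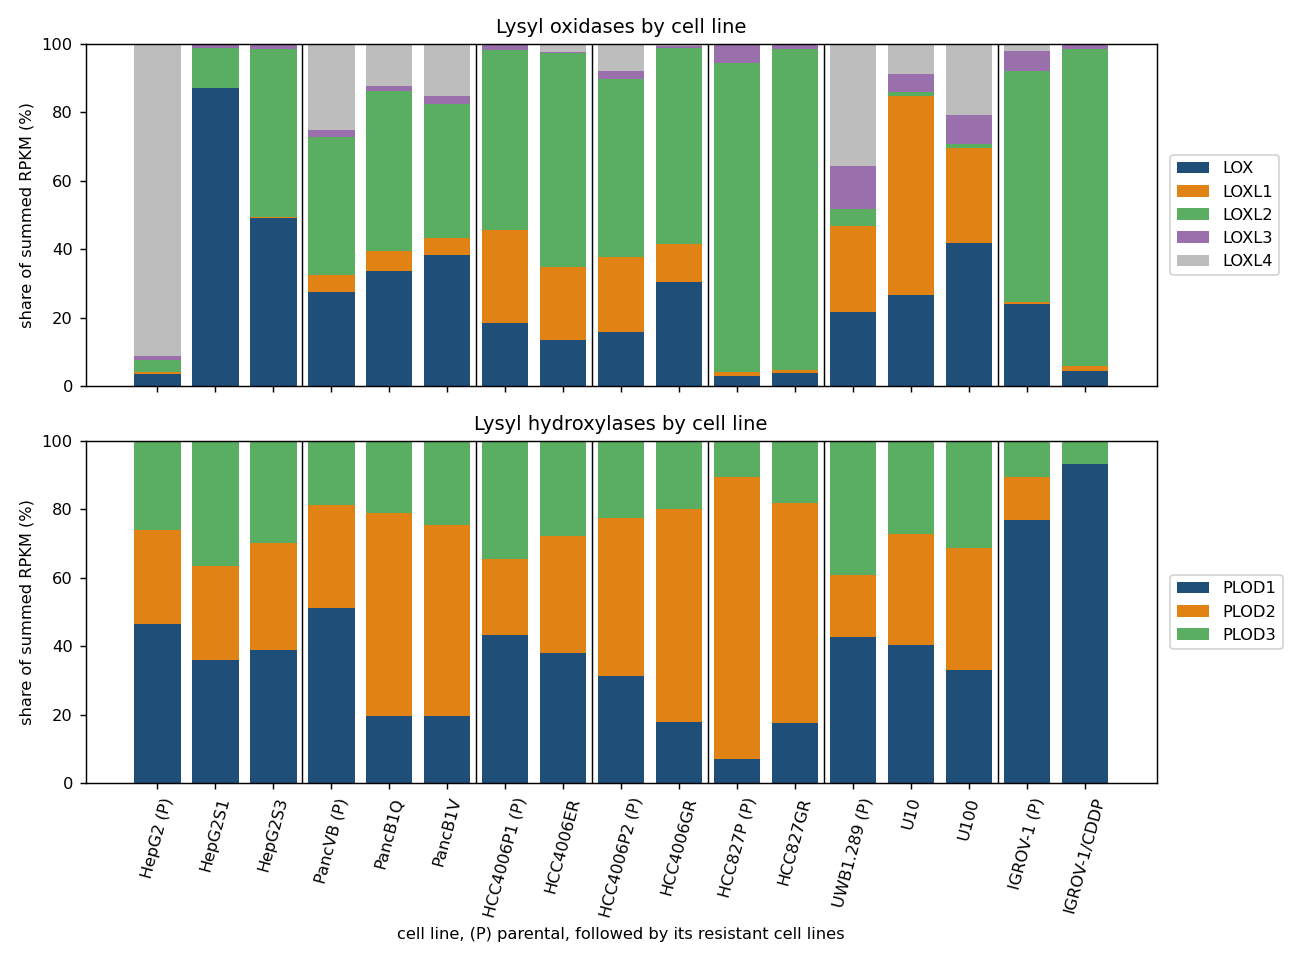
Share of each gene in the summed RPKM of its family (percent), lysyl oxidases above and lysyl hydroxylases below, by cell line with (P) marking parental lines. LOXL4 gives way to LOX and LOXL2 in the HepG2 derivatives, and PLOD2 is 0.133% of the hydroxylases in IGROV-1/CDDP.

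PLOD2, the telopeptide lysyl hydroxylase, was above 10 CPM in 16 of 17 lines. PancVB had 167 CPM against 491 in PancB1Q and 512 in PancB1V, UWB1.289 had 115 against 284 in U10 and 210 in U100, and HCC4006P2 had 305 against 614 in HCC4006GR. HCC4006P1 had 120 and 83.0 CPM and HCC4006ER 264 and 218. In these families every derivative library was above its parent. In the liver pair the groups overlapped, with 248 and 152 CPM in HepG2, 187 in HepG2S1 and 190 and 233 in HepG2S3. HCC827P had the highest level of the 17 lines, 888 CPM, and HCC827GR had 560. IGROV-1 had 79.7 CPM (1632 counts) and IGROV-1/CDDP 0.635 CPM (12 counts), a log2 difference of -5.63 (-5.90 to -5.25). The ratio of the parental to the resistant CPM was 126. Only 0.0448% of the expressed genes had a lower difference in that pair. The log2 difference was 1.55 in PancB1Q (1.49 to 1.61), 1.61 in PancB1V (1.55 to 1.67), 1.294 in U10 (1.19 to 1.40), 1.009 in HCC4006GR (0.95 to 1.07) and 1.24 ± 0.35 in HCC4006ER.

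Since PLOD2 is a hypoxia-inducible gene, 12 other genes of that response were read beside it. In IGROV-1/CDDP, 7 of the 10 with at least 1 CPM were past 2-fold lower and 0 higher, with a median log2 difference of -1.45 against -0.06 over all expressed genes. P4HA1 was at 203 CPM in the parent and 71.0 in the derivative, NDRG1 at 165 and 27.9, BNIP3 at 162 and 41.6, and PFKFB4 at 45.8 and 5.71 (examples chosen after their values were seen). In HCC4006GR 4 of 12 were past 2-fold higher and 0 lower (median 0.70), and PLOD2 was higher as well. PLOD2 was also past 2-fold higher in PancB1Q, where 4 of 11 were higher and 1 lower (median 0.21), in PancB1V, where 2 of 11 were higher and 0 lower (median 0.07), and in U10, where 1 of 11 was higher and 0 lower. In HCC4006ER 2 of 12 were higher and 3 lower with a median of -0.60, while LOX and PLOD2 were both higher. Of all expressed genes, 5.67% were past 2-fold higher and 7.62% lower in IGROV-1/CDDP, and 7.76% and 7.83% in HCC4006GR. The shares were 6.66% and 9.39% in PancB1Q and 9.60% and 7.14% in PancB1V. In U10 they were 6.36% and 5.63%, and in HCC4006ER 13.6% and 10.4%. Counts near these shares, such as those in U10 and HCC4006ER, are not particular to the list. The list and PLOD2 thus did not move together in every pair. All lines were kept at atmospheric oxygen, and the part of this response in the levels was not tested.

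PLOD1 and PLOD3, which hydroxylate lysines within the helix, varied less. PLOD1 lay between 60.4 CPM (HCC827P) and 390 CPM (IGROV-1), and the differences between resistant and parental lines ran from -0.79 in PancB1Q to 0.99 in HCC827GR. PLOD3, which also glycosylates hydroxylysine, lay between 24.1 CPM (IGROV-1/CDDP) and 189 CPM (UWB1.289). It was at 77.7 CPM in PancVB against 132 in PancB1Q and 168 in PancB1V, and lower in the cisplatin derivative, with 50.7 CPM in IGROV-1 against 24.1. These were the only pairs past 2-fold for PLOD3, with 1.11 in PancB1V (1.02 to 1.196) and -1.04 in IGROV-1/CDDP (-1.195 to -0.89), the latter being -0.95 after TMM scaling. As shares of the summed RPKM of the 3 hydroxylases, PLOD2 went from 30.2% in PancVB to 59.2% in PancB1Q and 55.9% in PancB1V and from 46.2% in HCC4006P2 to 62.1% in HCC4006GR. In IGROV-1/CDDP PLOD1 made up 93.1% and PLOD2 0.133%.

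P4HA2 was present in all 17 lines and stood out in 1. HCC4006P2 had 128 CPM and HCC4006GR 749, a log2 difference of 2.54 (2.46 to 2.62), while the other 15 lines had between 39.2 and 145 CPM. The neighbouring levels in that order lay close together, and 1 of the 16 gaps between them, that below HCC4006GR, exceeded the largest difference between replicates. PDLIM4, which overlaps P4HA2 on the opposite strand, was at 47.2 CPM in HCC4006P2 and 181 in HCC4006GR, and SLC22A4 at 3.20 and 10.8. Whether reads were shared between these genes was not tested. HepG2 had 63.3 and 41.6 CPM, HepG2S1 87.7 and HepG2S3 81.5 and 70.7. HCC4006P1 had 52.4 and 51.4 CPM and HCC4006ER 70.9 and 70.2. On CPM the resistant libraries were above the parental ones in both replicated pairs, by less than 2-fold. After TMM scaling the log2 difference went from 0.53 to 0.23 in HepG2S3 and from 0.44 to 0.34 in HCC4006ER. The HepG2S3 change did not pass the edgeR test given below.

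P4HA3, a minor catalytic subunit, was at 1.81 CPM or less in every parental line and higher in a few derivatives. HepG2 had 0.167 and 0.320 CPM (5 and 9 counts), HepG2S1 26.3 and HepG2S3 17.9 and 16.9. HCC4006P1 had 1.81 CPM in both libraries against 6.22 and 4.46 in HCC4006ER, and HCC4006P2 had 1.55 against 15.004 in HCC4006GR. In each of these 4 pairs all resistant libraries were above all parental ones. The remaining lines had between 0.786 and 2.56 CPM. The log2 difference was 4.45 in HepG2S1 (4.19 to 4.68), 3.89 ± 0.11 in HepG2S3, 1.17 ± 0.23 in HCC4006ER and 2.65 in HCC4006GR (2.16 to 3.07). On this scale the pseudocount understates the differences of such low genes. PPME1, on the opposite strand, had 57.2 CPM in HepG2, 75.9 in HepG2S1 and 94.7 in HepG2S3, and 154 in HCC4006P2 against 118 in HCC4006GR.

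**Figure D4:**
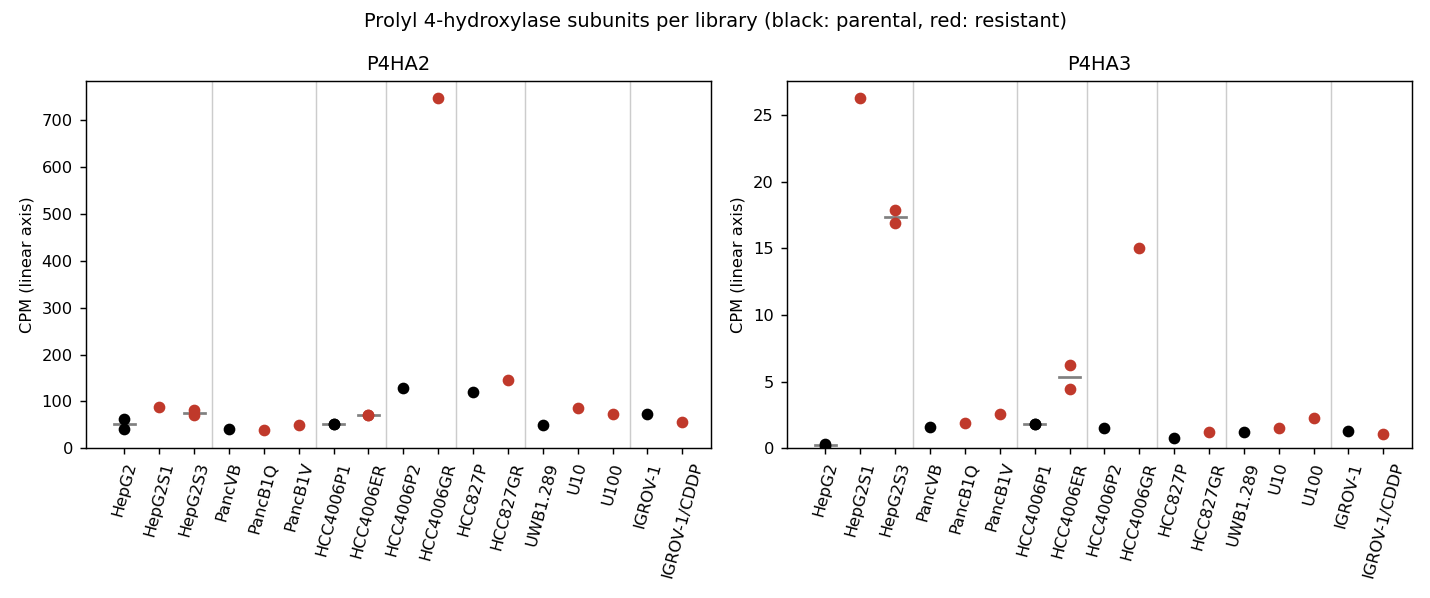
CPM on a linear axis for P4HA2 and P4HA3 in each library, by cell line, with parental lines in black, resistant lines in red and a gray bar at the mean of 2 libraries. HCC4006GR stands alone for P4HA2 at 749 CPM, and P4HA3 is at 15.004 CPM or more in HepG2S1, HepG2S3 and HCC4006GR.

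Whether these differences exceeded the spread between libraries could be tested with edgeR's quasi-likelihood test in the 2 pairs with 2 libraries on each side. In HepG2S3 against HepG2, 5 of 9 tested members passed an adjusted p under 0.05, 3 higher and 2 lower, while 63.5% of all 16929 tested genes did (31.4% higher and 32.1% lower), so the members' share was not above the background. LOX rose by 4.58 ± 0.22 (log2 fold change ± SE, adjusted p = 8.16e-05), LOXL2 by 4.68 ± 0.18 (adjusted p = 4.94e-05) and P4HA3 by 5.82 ± 0.34 (adjusted p = 0.000132). LOXL4 changed by -9.22 ± 0.35 (adjusted p = 4.92e-05) and PLOD1 by -0.69 ± 0.13 (adjusted p = 0.0071). These 3 oxidase changes and that of P4HA3 passed in all 8 alternative fits. LOXL3 (1.15 ± 0.53, adjusted p = 0.109), PLOD2 (-0.25 ± 0.27, adjusted p = 0.461), PLOD3 (-0.24 ± 0.15, adjusted p = 0.216) and P4HA2 (0.21 ± 0.24, adjusted p = 0.468) did not pass, and LOXL1 was removed by the filter on low counts. Leaving out a HepG2 library moved the size of several of these. Without HepG2 replicate 1 the change was 2.19 for LOXL3 and 0.56 for P4HA2. It was -3.25 for LOXL1, which could be tested there. Without HepG2 replicate 2 the change was -0.58 for PLOD2 and -0.39 for PLOD3. A line left with 1 library adds no spread between its own libraries, so calls in such fits do not cover that spread. PLOD1 no longer passed without HepG2S3 replicate 1 (adjusted p = 0.0701) or replicate 2 (adjusted p = 0.109).

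In HCC4006ER against HCC4006P1, 7 of 8 tested members rose and 0 fell. Of all 12791 tested genes 49.0% passed, 24.1% higher and 24.9% lower. LOX rose by 2.25 ± 0.19 (adjusted p = 0.000185), LOXL1 by 2.34 ± 0.13 (adjusted p = 4.30e-05), LOXL4 by 6.07 ± 0.28 (adjusted p = 1.94e-05), PLOD2 by 1.17 ± 0.19 (adjusted p = 0.00273) and P4HA3 by 1.48 ± 0.28 (adjusted p = 0.00545). PLOD1 (0.34 ± 0.11, adjusted p = 0.0491) and P4HA2 (0.36 ± 0.12, adjusted p = 0.0427) passed narrowly, and LOXL3 did not (0.71 ± 0.31, adjusted p = 0.105). Over 10 alternative fits LOX, LOXL1 and LOXL4 passed in 10, PLOD2 and P4HA3 in 9, P4HA2 in 5 and PLOD1 in 3. Without HCC4006ER replicate 1, 4 members passed, and PLOD1, P4HA2 and P4HA3 (adjusted p = 0.0514) did not. Without HCC4006ER replicate 2, PLOD1 and P4HA2 did not pass, and without HCC4006P1 replicate 2 the LOXL3 change was 1.10. Each of these fits leaves 1 line with 1 library and holds no spread between its libraries. Leaving out HCC4006P1 replicate 1, the library with the missing stretch, left 7 members called. In a fit of all genes without that library, added after the data were seen, LOXL2 rose by 2.86 ± 0.13 (adjusted p = 2.14e-108), while PLOD3 had 0.12 ± 0.12 (adjusted p = 0.356). There 7 of 10 members passed, and of 16597 genes 61.9% did, 30.8% higher. HCC4006P1 is then 1 library, assumed to vary like those of HCC4006ER, so these p-values carry no spread between parental libraries.

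**Figure D5:**
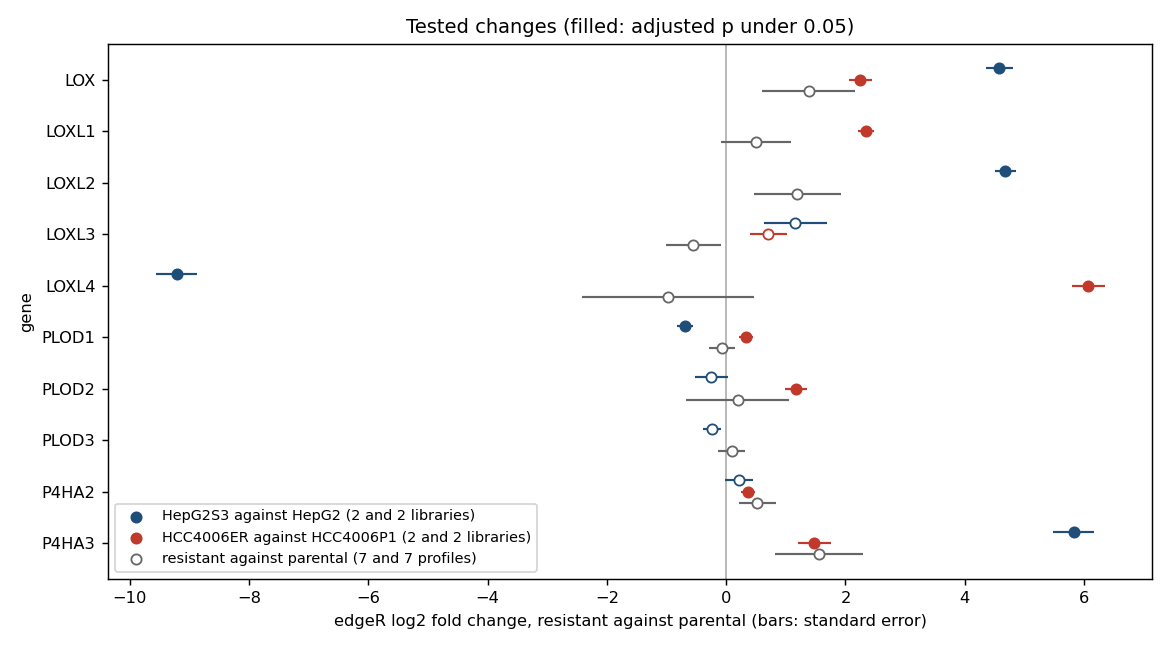
edgeR log2 fold change of resistant against parental lines (x axis, bars are standard errors) for each gene in the HepG2S3, HCC4006ER and 7-line comparisons, filled where the adjusted p was under 0.05. LOXL4 lies at -9.22 in HepG2S3 and 6.07 in HCC4006ER, and no gene is filled in the comparison over 7 parental lines.

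The difference between these 2 changes was tested as an interaction, and 6 of 8 tested members passed, 4 higher and 2 lower, against 55.9% of 14479 genes (27.7% higher and 28.2% lower). The change in HCC4006ER minus that in HepG2S3 was 15.27 ± 0.47 for LOXL4 (adjusted p = 6.92e-08), which had changed in opposite directions. It was -2.35 ± 0.30 for LOX (adjusted p = 0.000198) and -4.37 ± 0.46 for P4HA3 (adjusted p = 5.90e-05), both of which rose in either pair and by more in HepG2S3. It was 1.00 ± 0.18 for PLOD1 (adjusted p = 0.00148) and 1.38 ± 0.35 for PLOD2 (adjusted p = 0.00904). For LOXL1 it was 5.05 ± 0.78 (adjusted p = 0.000622), but the HepG2 lines had between 0 and 18 counts, so the size depends on the prior count. LOXL3 (-0.49 ± 0.66, adjusted p = 0.566) and P4HA2 (0.12 ± 0.27, adjusted p = 0.761) did not pass. Without HepG2 replicate 1, which leaves 1 HepG2 library, the LOXL3 value was -1.51.

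Over the 7 parental lines, each with 1 parental and 1 summed resistant profile, 0 of 15847 genes passed the edgeR test (0% called), with 722 at an unadjusted p under 0.05. None of the 10 members was among these, and DESeq2 called 102 genes and 0 members, with 2 members at an unadjusted p under 0.05. The fitted changes were 1.38 ± 0.79 for LOX (adjusted p = 0.984), 1.19 ± 0.73 for LOXL2 (adjusted p = 0.984), 1.56 ± 0.74 for P4HA3 (adjusted p = 0.984) and -0.97 ± 1.44 for LOXL4 (adjusted p = 0.989). PLOD1 (-0.07 ± 0.22), PLOD2 (0.19 ± 0.86) and PLOD3 (0.09 ± 0.23) lay near 0. Averaging derivatives of 1 parent on the CPM scale, P4HA2 and P4HA3 were above 0 in 6 of 7 parental lines, PLOD3 in 5, and LOX, LOXL1, LOXL2 and PLOD2 in 4. HCC4006P1 and HCC4006P2 are stocks of 1 cell line and therefore not fully independent.

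Other genes of the collagen pathway were followed in the same tests. For this and the following lists, 31.4% of all tested genes were called higher and 32.1% lower in HepG2S3. The shares were 24.1% and 24.9% in HCC4006ER and 27.7% and 28.2% in the interaction. Counts near these shares are not particular to a list. In HepG2S3, 4 of 10 further genes of procollagen hydroxylation and glycosylation rose and 3 fell (median -0.21, against -0.01 over all tested genes). P3H2, a prolyl 3-hydroxylase, went from 0.227 to 9.63 CPM, and CRTAP, which forms a complex with P3H1, from 89.5 to 334. The collagen galactosyltransferase COLGALT2 went from 54.4 to 0.333 CPM and P3H3 from 35.4 to 4.24. In HCC4006ER 6 of the 10 rose and 0 fell (median 0.82, against 0.01 over all tested genes), with COLGALT2 going from 0.0549 to 9.23 CPM and P3H1 from 45.3 to 154. COLGALT2 thus moved in the same opposed way as LOXL4, with an interaction of 14.69 ± 0.82 (adjusted p = 1.49e-06). In that interaction test 5 of the 10 were higher, P3H3 by 4.48 ± 0.38, and 2 lower, P3H2 by -4.94 ± 0.34 and P3H4 by -1.17 ± 0.24.

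Of the 7 genes of collagen folding and export, 1 rose and 2 fell in HepG2S3 (median 0.23) and 3 rose and 1 fell in HCC4006ER (median 0.32). In HepG2S3 SEC24D, of the secretory coat, went from 62.4 to 193 CPM and SPARC, a collagen-binding matrix protein, from 72.9 to 0.157, and MIA2 changed by -2.68 ± 0.16. In HCC4006ER SPARC went from 0.432 to 8870 CPM, the collagen chaperone SERPINH1 from 143 to 720, and MIA2 changed by -1.53 ± 0.21. The interaction passed upward for 3 of the 7, SPARC and SERPINH1 (2.03 ± 0.24) among them, and downward for 0. Of 8 procollagen proteinases and enhancers, 5 were tested in HepG2S3, where 2 rose and 2 fell (median -0.84), and 6 in HCC4006ER, where 4 rose and 1 fell (median 2.53). BMP1, which releases the procollagen C-propeptide and activates LOX, went from 24.3 to 69.1 CPM in HepG2S3. Its relative TLL1 went from 0 counts in HepG2 to 19.0 CPM, a rise of at least 8.52 on the log2 scale against 3 counts over the group. ADAMTS2, the N-propeptidase, went from 2.28 to 0.01999 CPM in HepG2S3 and from 0.0919 to 121 in HCC4006ER, and ADAMTS14 from 5.98 to 0.784 in HepG2S3. ADAMTS3 rose from 0.560 to 13.9 CPM and PCOLCE2 fell from 32.6 to 12.7 in HCC4006ER. The interaction was higher for 3 of these proteinases and enhancers, ADAMTS2 and ADAMTS14 (5.42 ± 0.57) among them, and lower for 1, TLL1.

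Of 12 substrates and partners of the lysyl oxidases, 8 could be tested in either pair. In HCC4006ER all 8 rose (median 3.65), led by COL3A1, from 0.0549 to 54.0 CPM, and COL11A1, from 0.0549 to 26.8 CPM. In HepG2S3 3 rose and 3 fell (median -0.03). COL5A1 went from 1.72 to 1581 CPM and the elastic fibre protein FBLN5 from 0.720 to 78.3, while fibronectin (FN1) went from 19299 to 353 and EFEMP2 from 15.9 to 1.18. COL1A2 lies where HCC4006P1 replicate 1 lacked counts and was not tested there, with 0.194 CPM in HCC4006P1 and 1653 in HCC4006ER, but at most 0.0979 CPM in HepG2 and HepG2S3. The interaction passed upward for 5 of the 8, COL3A1 and FN1 (9.39 ± 0.32) among them, and downward for 1, FBLN5 (-3.78 ± 1.19). Fitted changes of genes under 0.5 CPM on one side depend on the prior count, which is why their levels are given.

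On the hypoxia-inducible list more genes fell than rose in both tested pairs, and their part in the members' changes was not tested. Of all tested genes 31.4% were called higher and 32.1% lower in HepG2S3, and 24.1% and 24.9% in HCC4006ER. In HepG2S3, 2 of 12 rose and 6 fell (median -0.45), with ADM (from 9.46 to 29.9 CPM) and NDRG1 (from 104 to 253) rising and the glucose transporter SLC2A1 (from 1514 to 83.1) and EGLN3 (from 3.62 to 0.707) falling. In HCC4006ER 2 of 10 rose, VEGFA by 1.21 ± 0.15 and ADM by 1.17 ± 0.19, and 5 fell (median -0.34), EGLN3 by -3.10 ± 0.20 and SLC2A1 by -2.17 ± 0.19 among them. The interaction was higher for 3, VEGFA (2.44 ± 0.24) and SLC2A1 (2.31 ± 0.25) among them, and lower for 1, ANKRD37 (-2.12 ± 0.47).

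Markers of other cell types moved in the same lines. The 6 hepatocyte markers summed to 42839 CPM in HepG2, 1.42 in HepG2S1 and 30.7 in HepG2S3, and albumin (ALB) was at 0 in HepG2S1 and 11.3 CPM in HepG2S3. The 4 ovarian carcinoma markers summed to 28.5 CPM in HepG2, 264 in HepG2S1 and 445 in HepG2S3. PAX8, on the same list, went the other way, with 5.63, 1.42 and 1.19 CPM. Of 6 fibroblast markers, 4 were at or above 1 CPM in HepG2S1, HepG2S3 and HCC4006ER each. Their sum was 10.3 CPM in HepG2, 705 in HepG2S1 and 496 in HepG2S3, and 1.03 in HCC4006P1 against 207 in HCC4006ER. DCN made up most of it in the HepG2 derivatives (508 and 425 CPM) and LUM in HCC4006ER (142 CPM), while THY1 stayed at 0.670 CPM or less in all of these and FAP at 0.0942 CPM in HCC4006ER. In HCC4006GR, where LOX and LOXL2 were also higher, the sum was 13.6 CPM with DCN at 0. The 3 leukocyte markers summed to 1910 CPM in HepG2, 0.647 in HepG2S1 and 1.49 in HepG2S3. Nearly all of this was LYZ, while PTPRC and CD3E were at 0.129 CPM or less in these lines. In U10, where LOX, LOXL1 and PLOD2 were past 2-fold higher, the fibroblast sum was 215 CPM against 4.52 in UWB1.289, nearly all of it THY1, and the sum of 2 endothelial markers was 108 against 13.7. In U100 these sums were 12.8 and 62.7 CPM. The part of these genes in the members' changes was not tested, and in bulk libraries a larger share of cells of one kind and more RNA per cell cannot be told apart. The paper reports small copy-number differences between parental and resistant lines, except in the pairs from the liver line. The part of such genome differences in the members' changes was not tested, nor was the descent of the liver derivatives from their parent.

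Last, the genes whose level followed each member most closely over the 17 lines were read from 13700 protein-coding genes (Pearson correlation of log2(CPM + 1)). The points share parents and libraries, so the values are descriptive. They were WIPF1 (0.90) and BEND6 (0.87) for LOX, LAYN (0.97) and ZNF135 (0.95) for LOXL1, KAT2B (0.89) and HOXB6 (0.88) for LOXL2, and SLC43A1 (0.88) and TBC1D16 (0.87) for LOXL4. LAYN, a hyaluronan receptor, thus had the closest likeness of all. For LOXL3 they were ENOX1 (0.84) and ANKS6 (0.84), for PLOD1 C2orf16 (0.82) and BCAM (0.81), for PLOD2 SQOR (0.90) and POGLUT3 (0.89) and for PLOD3 TPD52L2 (0.88) and ABLIM3 (0.86). P4HA2 was followed by the tryptophan-degrading enzymes KMO (0.90) and IDO1 (0.87), and P4HA3 by PSORS1C1 (0.89) and HES7 (0.87). Within the member list the closest pairs were LOX with P4HA3 (0.81) and PLOD2 with PLOD3 (0.72), and PLOD1 with PLOD2 was the most opposed (-0.67).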

How the data were processed

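RNA was sequenced from 21 libraries of 17 cell lines with a stranded mRNA kit per the labels. The authors mapped reads to hg19 (the processing notes name Bowtie, TopHat, SAMtools and HTSeq, without versions) and deposited counts of reads per Ensembl gene, not normalized. The study's methods also name STAR and a 3′-end kit without saying for which libraries. The strand setting of the counting is not given in the sources used here. Symbols and positions came from GENCODE 44 on GRCh37 (45100 of 53515 identifiers matched). The members and lists were chosen with earlier results of these data known.

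CPM were computed over genes with a known position outside the part missing from HCC4006P1 replicate 1, raising CPM by a factor of 1.22 to 1.37 over that from the total (1.03 in that library). Replicates were averaged, and differences were taken on log2(CPM + 1) over genes with at least 1 CPM in either line, with 95% intervals combined from Wilson limits. Tests used edgeR 4.0.16 (quasi-likelihood, TMM, filterByExpr, Benjamini-Hochberg, threshold 0.05) in R 4.3.3. They were run on simulated counts in which far fewer genes changed than were called in the replicated pairs. The fits were thus not checked in the setting of these pairs. Alternatives used DESeq2 1.42.0, RLE size factors, no filter, the replicate number as a block, a pseudocount of 0.1, other totals and each library left out. A fit of all genes without HCC4006P1 replicate 1 was added after the data were seen. A fit with 1 library in a group assumes that it varies like the others. Named are all members, from each pathway list the 2 called genes with the largest change in each direction, and the 2 protein-coding genes most correlated with each member. Replicate numbers were the letters A and B of the labels. Titles give both HepG2 libraries, and both HepG2S3 libraries, 1 number, so their independence is unsure. PECAM1 was not analysed here.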

Additional observations from a re-analysis of the deposited data

Results flagged for a closer look

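In a test for a single far value among the 7 parental lines (20 such tests, of which chance gives about 1 in 20), 2 values stood apart. They were the PLOD2 difference of IGROV-1/CDDP against IGROV-1 (-5.63 on log2(CPM + 1)) and the P4HA2 difference of HCC4006GR against HCC4006P2 (2.54). Each rests on 1 library per line.

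The change differed between HCC4006ER and HepG2S3 for 6 members in edgeR's interaction test. The difference (HCC4006ER minus HepG2S3) was -2.35 for LOX, 5.05 for LOXL1, 15.27 for LOXL4, -4.37 for P4HA3, 1.00 for PLOD1 and 1.38 for PLOD2. All 6 passed in each of the 12 alternative fits. Tissue, drug, medium and the depth of libraries differ together between these pairs and cannot be told apart.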

How the results depend on the processing

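The calls of LOX, LOXL2, LOXL4 and P4HA3 in HepG2S3 and of LOX, LOXL1 and LOXL4 in HCC4006ER held under every alternative fit. A fit of a pair with 1 library left out takes its spread from the other line alone, so its number of calls does not cover both lines. Keeping the genes without counts in HCC4006P1 replicate 1 lowered the HCC4006ER calls to 3417 genes and 4 members, an alternative that adds genes with an empty library. Leaving out 1 library, HCC4006ER calls ran from 4046 (30.7%) to 8370 genes (63.6%) and 4 to 8 members, and HepG2S3 calls from 7341 of 17811 genes to 13242 of 17652 and 4 to 8 members, LOXL1 included. With the missing genes kept and HCC4006P1 replicate 1 left out, added after the data were seen, 10281 genes (61.9%) and 7 members were called. Directions turned on leaving out 1 library or parental line for results that had not passed: in HepG2S3 PLOD2 ran from -0.58 to 0.16 and P4HA2 from -0.081 to 0.56, and in the interaction LOXL3 ran from -1.51 to 0.11 and P4HA2 from -0.23 to 0.40. Over 7 parental lines PLOD1 ran from -0.23 to 0.050, PLOD2 from -0.097 to 0.71 and PLOD3 from -0.060 to 0.26, PLOD2 being -0.094 with both HCC4006 stocks as 1. DESeq2 called 102 genes over 7 parental lines where edgeR called 0, and the cause was not tested. On the CPM scale 9 of 100 calls past 2-fold differed with a pseudocount of 0.1, 3 with TMM-scaled totals and 1 with the total on all genes. Depth limits members under 0.388 CPM in the shallowest library.

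With the replicate number as a block, edgeR called 10561 genes and 6 members in HepG2S3, 7787 and 8 in HCC4006ER, and 8196 and 6 in the interaction. LOXL3 passed in both pairs under the block (adjusted p = 0.0308 and 0.0192). Deviations of same-numbered libraries had a correlation of 0.047 for HepG2 with HepG2S3 and 0.41 for HCC4006P1 with HCC4006ER, over 2 numbers each, so the numbers were not taken as pairing.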

Other observations

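The partners of these enzymes also differed in pairs without replicates. In U10, 5 of 9 lysyl oxidase substrates and partners with at least 1 CPM were past 2-fold higher than in UWB1.289 and 1 lower. Their median log2 difference was 2.15. In U100 2 of 6 were higher and 0 lower. Of all expressed genes, 6.36% were past 2-fold higher and 5.63% lower in U10, and 6.87% and 1.88% in U100. Fibronectin (FN1) was at 1534 CPM in UWB1.289, 10646 in U10 and 7123 in U100, and EFEMP2, which carries LOX to elastic fibres, at 14.3, 66.9 and 42.9 CPM. COL1A2 was at 5.85 CPM in HCC4006P2 and 124 in HCC4006GR, and COL5A1 at 256 and 1482. BMP1 was higher in HepG2S1 (121 against 24.3 CPM), HCC4006GR (247 against 110) and U10 (48.7 against 14.3). The named genes were chosen after their values were seen, and none of these pairs has a replicate check.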
